A study of Mus musculus with 18 samples.

Results

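Stromal cells of the mouse salivary gland were compared 8 days and 3 hours after an adenovirus was put into the gland. The 3 libraries labelled day 8 and the 3 labelled hour 3 were taken by their titles, 6 of the 18 libraries of the series. All 6 came from wild-type Balb/c mice aged 8 to 12 weeks that had received a replication-defective adenovirus 5 (Ad5) through a cannula in the submandibular duct, so both groups carry the same agent and differ in the time since it was given. Each library has a subject label of its own, and the titles number the replicates 1 to 3 at day 8 and 4 to 6 at hour 3. The cells were sorted by flow cytometry on gp38, also called podoplanin, a surface glycoprotein of fibroblasts that some epithelial, lymphatic and myeloid cells carry too. Total RNA was sequenced on an Illumina platform, and the series' title names the histone demethylase KDM6B and the early commitment of immunofibroblasts. The uninfected, day 1, day 2 and day 23 groups of the series are used here only as levels.

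Fibroblasts are among the first cells of a tissue to respond to a virus or to injury. Pattern receptors and cytokines switch on NF-kB and interferon regulatory factors within hours, and the cells then secrete chemokines that draw neutrophils and monocytes, the cytokine IL-6 and interferon-induced antiviral proteins. Later in the first week of such a response lymphocytes and macrophages gather, and stromal cells can enter the cell cycle. In salivary glands, immunofibroblasts are podoplanin-bearing fibroblasts that make lymphoid chemokines and adhesion molecules and support the assembly of lymphoid aggregates.

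Library depth was similar, with 12033146, 14041925 and 15234431 counts on genes at day 8, against 14881470, 13886173 and 14739933 at hour 3. More genes had a count at day 8 (21312 to 21542) than at hour 3 (19068 to 19599). Mitochondrially encoded genes took 14.6% ± 1.56 of counts at day 8 and 7.25% ± 1.52 at hour 3 (SD, n = 3 each; two-sided exact permutation p = 0.1, the smallest that 3 against 3 allows). Equal background was taken as given when the 2 groups were chosen, and the counts on 1502 olfactory, vomeronasal and taste receptor genes, which stromal cells are not known to use, went against that. In counts-per-million units (CPM) of the library total they had 13.8, 11.5 and 11.9 CPM at day 8, against 31.6, 24.4 and 20.9 CPM at hour 3. The groups did not overlap, with a ratio of 0.484 (two-sided exact permutation p = 0.1), and both lay far below the range of 293 to 1752 in the hour 0, day 1 and day 2 libraries. Among fibroblast markers, Pdpn, Pdgfra, Pdgfrb, Thy1, Col1a1, Col1a2, Dcn and Lum were all detected in every library. Salivary secretory RNA was present too: Mucl2, a mucin-like gland product, took 4.20%, 9.38% and 11.2% of counts in the day 8 libraries, against 3.51%, 6.06% and 5.84% in the hour 3 libraries.

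Levels below are CPM after TMM scaling, which assumes that most genes have a common level in the 6 libraries. A fold change is day 8 over hour 3. Genes were called higher or lower at a Benjamini-Hochberg adjusted p under 0.05 in edgeR's quasi-likelihood test over all genes tested, and rose or fell is written of called genes. TMM factors were 1.24 to 1.46 at day 8 and 0.742 to 0.768 at hour 3. The assumption behind TMM was not tested, and 70.5% of the genes tested were called. Scaled by library totals alone, log2 fold changes were higher by 0.81 at the median gene, so falls smaller than this can lose their call or turn round. Some larger falls also lost their call by library totals, such as that of Pdgfra (log2 fold change -1.07 with TMM). The counts that this scaling gives are therefore added after each gene group as "by library totals".

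Promoters of genes from 3 of the groups described below, the CXC chemokines, the type I interferon-stimulated genes and the mitosis genes, are shown here because they hold the short motifs for which each group is known. The sequences are the 250 bases before the gene start in RefSeq's annotation of GRCm38.p6, read along the gene's strand. In Cxcl1, Cxcl2 and Cxcl3 capitals mark a core of the NF-kB site, searched as GGG, any 2 bases and TTTCC, and in Ifit1 they mark the core of the interferon-stimulated response element, searched as TTTC, any 2 bases and TTTC. In Cdk1 and Ccnb2 they mark CCAAT, the box bound by NF-Y, and TTTGAA, a core of the cell cycle genes homology region. A match on the opposite strand is capitalised as its reverse complement, and no capitalised matches overlap one another.
Cxcl1 (chr5:90890995-90891244, plus strand): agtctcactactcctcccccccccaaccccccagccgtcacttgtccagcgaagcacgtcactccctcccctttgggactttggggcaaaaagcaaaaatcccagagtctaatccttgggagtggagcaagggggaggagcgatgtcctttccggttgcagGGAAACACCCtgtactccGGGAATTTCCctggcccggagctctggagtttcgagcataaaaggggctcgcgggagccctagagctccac
Cxcl2 (chr5:90903649-90903898, plus strand): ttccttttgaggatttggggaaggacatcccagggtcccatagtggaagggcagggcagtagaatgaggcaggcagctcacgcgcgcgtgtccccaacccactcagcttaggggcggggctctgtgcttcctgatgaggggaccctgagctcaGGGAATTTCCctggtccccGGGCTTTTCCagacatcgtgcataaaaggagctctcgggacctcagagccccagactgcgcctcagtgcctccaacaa
Cxcl3 (chr5:90785851-90786100, plus strand): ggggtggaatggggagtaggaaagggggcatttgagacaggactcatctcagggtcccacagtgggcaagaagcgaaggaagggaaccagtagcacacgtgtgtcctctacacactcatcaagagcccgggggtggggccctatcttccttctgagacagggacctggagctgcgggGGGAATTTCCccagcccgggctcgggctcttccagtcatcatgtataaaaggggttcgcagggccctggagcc
Ifit1 (chr19:34640639-34640888, plus strand): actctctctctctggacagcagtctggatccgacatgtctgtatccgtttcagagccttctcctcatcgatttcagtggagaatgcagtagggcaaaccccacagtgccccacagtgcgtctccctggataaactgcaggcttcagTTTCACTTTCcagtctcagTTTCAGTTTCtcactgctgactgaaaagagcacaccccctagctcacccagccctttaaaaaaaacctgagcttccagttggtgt
Cdk1 (chr10:69352913-69353162, minus strand): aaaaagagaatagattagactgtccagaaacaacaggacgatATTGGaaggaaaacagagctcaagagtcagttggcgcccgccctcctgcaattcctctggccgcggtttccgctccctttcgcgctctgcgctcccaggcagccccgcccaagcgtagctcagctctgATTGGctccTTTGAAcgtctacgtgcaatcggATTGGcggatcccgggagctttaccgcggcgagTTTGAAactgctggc
Ccnb2 (chr9:70421555-70421804, minus strand): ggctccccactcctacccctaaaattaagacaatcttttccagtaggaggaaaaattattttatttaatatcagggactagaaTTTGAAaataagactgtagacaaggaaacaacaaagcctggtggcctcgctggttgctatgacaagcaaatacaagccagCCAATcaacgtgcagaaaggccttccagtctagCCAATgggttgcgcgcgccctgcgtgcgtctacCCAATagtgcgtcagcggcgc

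Over the windows from 250 bases before to 50 bases after the start, searched on both strands, the NF-kB core was in 3 of 5 promoters of the neutrophil-attracting CXC chemokines, 4 of 15 of the inflammatory cytokines and 6 of 17 of the NF-kB subunits and inhibitors, against 1.63% of all 32851 promoters. The interferon element core was in 11 of 19 promoters of type I interferon-stimulated genes (57.89%), against 3.44% of all. The mitosis genes held CCAAT in 16 of 19 promoters (84.21%) and TTTGAA in 14 of 19 (73.68%), against 37.41% and 17.89% of all promoters. The DNA replication genes had CCAAT in 14 of 23 promoters (60.87%) and TTTGAA in 3 of 23 (13.04%). Other lists also held these motifs in most of their promoters: CCAAT was in 12 of 15 promoters of cholesterol synthesis genes (80%), 7 of 9 of MHC class II genes (77.78%) and 14 of 18 of circadian clock genes (77.78%), and the interferon element core in 9 of 16 of interferon-gamma-responsive genes (56.25%). These shares describe letters in a window and show no binding.

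Of 14517 genes tested, 10228 (70.5%) were called, 5392 higher at day 8 (37.1%) and 4836 lower (33.3%). The median fold was 2.76 for genes called higher and 2.29 for those called lower. With a change of at least 2-fold also required, 3801 genes were higher (26.2%) and 2912 lower (20.1%). By library totals, 8849 genes were higher (61%) and 2200 lower (15.2%), so the share of calls that were higher was 52.7% with TMM and 80.1% with totals. The share called depends on how many low genes are tested, and was 40% of 27165 genes with no filter on low counts and 70.5% here. A list is read here against the shares with the filter, and one with similar shares of its members called in each direction is at the background. In bulk libraries fewer cells of a type and less RNA per cell cannot be told apart, which holds for every level given here.

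**Figure D1:**
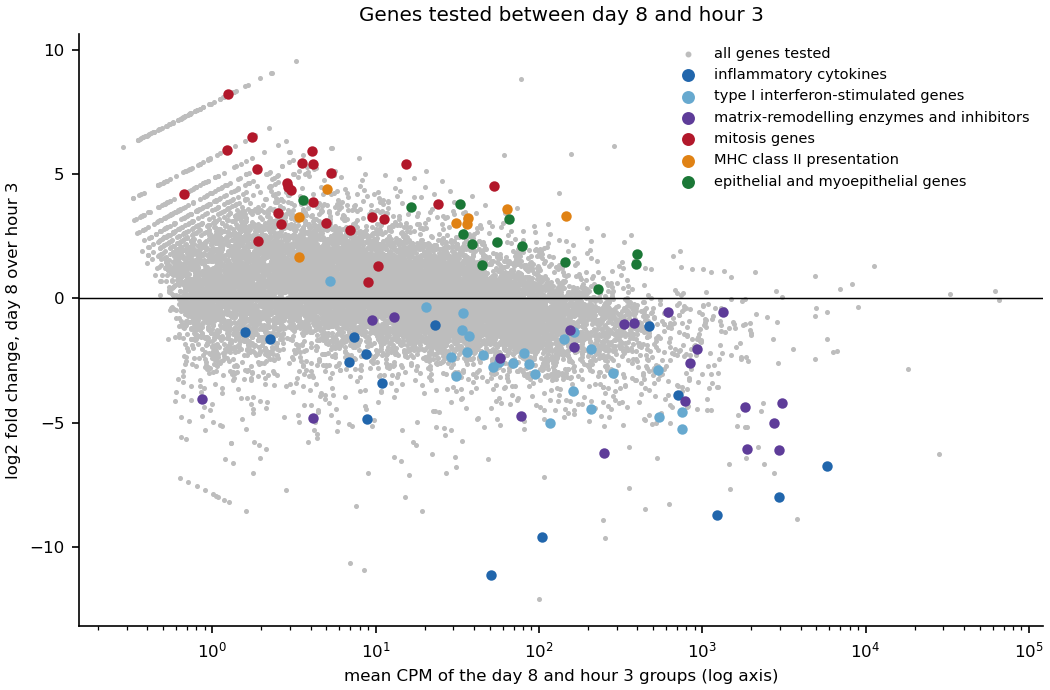
Each grey point is 1 of the 14517 genes tested, with its mean CPM over the day 8 and hour 3 groups on a log axis and its log2 fold change, day 8 over hour 3. Tested members of 6 gene lists are coloured: all inflammatory cytokines lie below 0, and all mitosis genes lie above 0.

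The genes with the largest falls at day 8 were mostly secreted inflammatory proteins. Csf2, the gene of GM-CSF, had 0, 0.111 and 0 CPM at day 8, against 130, 95.0 and 81.6 CPM at hour 3. That is 2 counts over the day 8 group, against 3355 over the hour 3 group, so the hour 3 level was 2775 times as high with an exact 95% interval from 767 to 22920 that covers counting error only. Cxcl3 also had 2 counts over the day 8 libraries, against 6557 over the hour 3 libraries, a ratio of 5423 with an interval from 1501 to 44786. No library of one group came near a library of the other for either gene. Prg4, the lubricant proteoglycan lubricin, averaged 1.01 ± 0.442 CPM at day 8 and 491 ± 134 CPM at hour 3 (SD, n = 3 each; log2 fold change -8.91). Further genes of this set were the macrophage elastase Mmp12 (log2 fold change -8.57), the protease inhibitor Tfpi2 (-8.47) and Serpinb2, a plasminogen activator inhibitor (-7.98), whose hour 3 libraries spread from 12.4 to 62.6 CPM.

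Largest among the rises was Bpifa2, which encodes parotid secretory protein, with 160, 197 and 106 CPM at day 8, against 0, 0.657 and 0.359 CPM at hour 3 (log2 fold change 8.81 ± 0.41 SE, adjusted p = 1.96e-08). Tfcp2l1, a transcription factor of ducts, had 267, 326 and 328 CPM at day 8, against 3.99, 8.91 and 3.77 CPM at hour 3 (log2 fold change 5.79 ± 0.27, adjusted p = 1.84e-08). For both genes every day 8 library lay far above every hour 3 library. Others of the 14 largest rises belong to dividing cells, namely Cenpf (log2 fold change 5.41), the linker histone gene Hist1h1b (4.79), Mki67 (4.50) and the microtubule regulator Stmn1 (4.43). Epithelial and duct genes among them were the protocadherin Fat2 (5.13), the sodium-proton exchanger Slc9a3 (4.48), Trim29 (4.33) and Wfdc18 (4.24). Rgs5, a marker of pericytes, rose by 4.31, and the remaining genes were Def6 (4.96), Itprid1 (4.83) and Nynrin (4.70).

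Neutrophil-attracting CXC chemokines were far lower at day 8: all 4 members tested fell, with a median log2 fold change of -8.64 beside 0.11 over all genes, and by library totals all 4 fell too. Cxcl1, a ligand of the neutrophil receptor CXCR2, had 53.8, 36.8 and 38.1 CPM at day 8, against 4759, 3219 and 3043 CPM at hour 3 (log2 fold change -6.42 ± 0.26 SE, adjusted p = 8.67e-09). Cxcl2 had 3.66, 3.62 and 3.34 CPM at day 8, against 946, 649 and 522 CPM at hour 3. Cxcl5 averaged 0.633 ± 0.400 CPM at day 8 and 506 ± 120 CPM at hour 3 (SD, n = 3 each). In each of these genes every hour 3 library lay far above every day 8 library. Cxcl15 had no count in any of the 6 libraries, and Ppbp had 1 count at day 8 and 5 at hour 3, so neither was tested.

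Of 8 inflammatory CC chemokines tested, 5 fell and none rose (by library totals 5 fell and 1, Ccl5, rose). Ccl2, which draws monocytes through CCR2, had 24.99, 9.01 and 15.0 CPM at day 8, against 9189, 7135 and 6565 CPM at hour 3 (log2 fold change -8.87 ± 0.41 SE, adjusted p = 1.75e-08). It did not overlap between the groups and was lowest in replicate 2. Ccl7, another CCR2 ligand, averaged 12.1 ± 5.72 CPM at day 8 and 1042 ± 177 CPM at hour 3, and the eosinophil attractant Ccl11 averaged 123 ± 19.5 CPM at day 8 and 3175 ± 990 CPM at hour 3 (SD, n = 3 each). Ccl8 fell by 2.62 and Ccl22 by 3.77 on the log2 scale. Ccl3, Ccl4 and Ccl5, which leukocytes also make, did not pass the test: their log2 fold changes were -0.56, -0.37 and 0.18, with overlapping libraries and means of 2.33 to 4.44 CPM at day 8 and 3.45 to 3.91 CPM at hour 3.

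All 15 inflammatory cytokines tested fell at day 8, each with no overlap between the groups, which held in that direction for 35.1% of all genes tested and in the other for 39.8% (median log2 fold change -3.42; by library totals 11 fell and none rose). Il6 had 33.6, 13.7 and 21.2 CPM at day 8, against 7677, 4856 and 5026 CPM at hour 3 (log2 fold change -8.00 ± 0.39 SE, adjusted p = 2.44e-08). Lif, which signals through the same gp130 receptor chain, had 7.84, 4.56 and 5.20 CPM at day 8, against 2984, 2141 and 2242 CPM at hour 3 (log2 fold change -8.71 ± 0.27). These are among the genes with the widest gap between the groups, and Il11 of the same family fell by 4.88. Growth factors of myeloid cells fell with them. Csf1, the macrophage growth factor, averaged 106 ± 18.1 CPM at day 8 and 11528 ± 415 CPM at hour 3, and Csf3, which encodes G-CSF, averaged 0.259 ± 0.211 CPM at day 8 and 209 ± 33.7 CPM at hour 3 (SD, n = 3 each). The alarmin Il33 fell by 3.88 and Tslp by 3.42 on the log2 scale. Falls were smaller for Il1b (-1.08), Cxcl12 (-1.13), Il1a (-1.38), Tnf (-1.58) and Osm (-1.63), and by library totals Il1a, Il1b, Cxcl12 and Osm were not called.

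**Figure D2:**
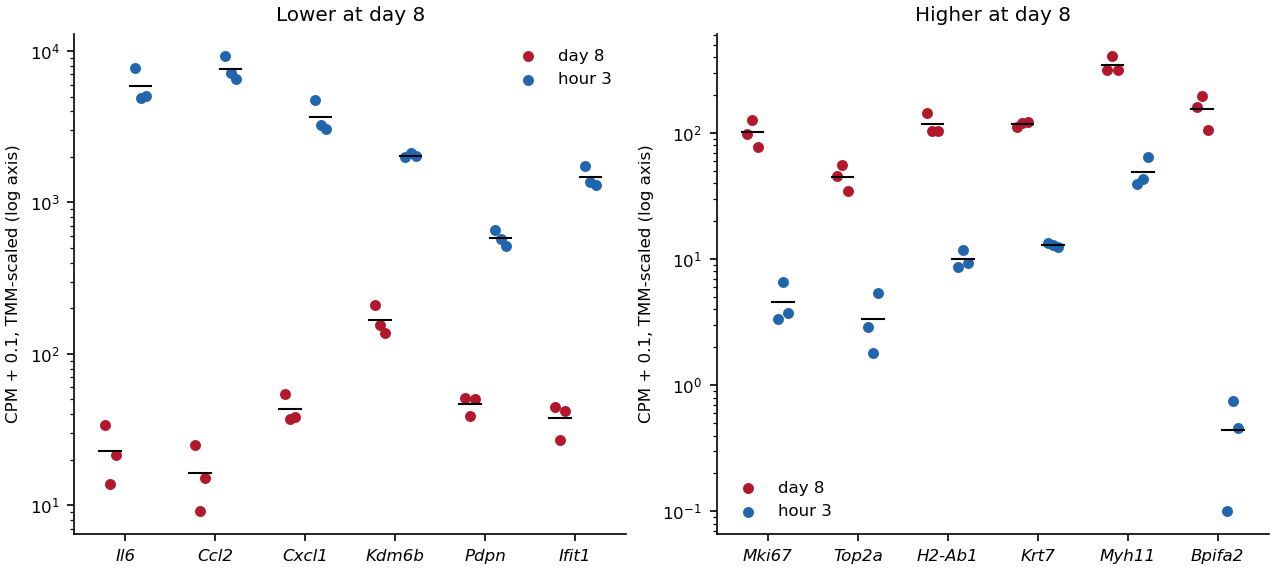
CPM + 0.1 on a log axis in each library for 12 genes, with day 8 libraries in red left of hour 3 libraries in blue and a black line at the group mean. The left panel holds genes that fell at day 8 and the right panel genes that rose, and no red point of a gene overlaps its blue points.

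Genes of the NF-kB pathway were lower at day 8 as well. Of 15 subunits and feedback inhibitors tested, 12 fell and none rose (median log2 fold change -2.10; by library totals 11 fell and 3 rose). Nfkb1, the p105 and p50 subunit, had 113, 76.0 and 83.7 CPM at day 8, against 2386, 1948 and 1777 CPM at hour 3 (log2 fold change -4.49 ± 0.20 SE). Tnip1, an inhibitor of the pathway, fell by 3.94 and Tnfaip3, the deubiquitinase A20, by 3.48. Rela, Relb, Rel and Nfkbia fell by 2.02 to 2.64, while Nfkbid, Nfkbie and Tnip3 had log2 fold changes of 0.41, 0.35 and 0.33 that did not pass the test. Among 8 genes that destabilise mRNA, the ribonuclease gene Zc3h12a fell by 4.35 and Tob1 rose by 2.26, with 4 falling and 2 rising in all (by library totals 3 fell and 4 rose). Zfp36, whose product tristetraprolin binds cytokine transcripts, had 939, 793 and 734 CPM at day 8, against 740, 705 and 695 CPM at hour 3, and was not called. The list of STAT factors and their feedback held 8 falls and 3 rises among 12 tested (by library totals 5 and 5). Stat3, which acts below IL-6, averaged 192 ± 35.0 CPM at day 8 and 1070 ± 40.3 CPM at hour 3. Socs3, the feedback inhibitor of STAT3, fell by 1.62.

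Of 9 prostaglandin and hyaluronan enzymes tested, 6 fell and 3 rose (by library totals 5 and 3). Ptgs2, which encodes cyclooxygenase-2, had 65.8, 26.9 and 33.8 CPM at day 8, against 7376, 4876 and 4159 CPM at hour 3 (log2 fold change -7.02 ± 0.40 SE, adjusted p = 8.08e-08). Has1 and Has2, the hyaluronan synthases, fell by 4.87 and 2.95, and Tnfaip6, a hyaluronan-binding protein, by 4.61. The hyaluronidase genes Hyal1 and Hyal2 rose by 1.27 and 2.44, and Ptges2, a prostaglandin E synthase, by 1.10. Of 7 leukocyte adhesion genes, 5 fell and 2 rose (by library totals 4 and 2). Icam1, the ligand of leukocyte integrins, averaged 112 ± 32.0 CPM at day 8 and 1129 ± 79.4 CPM at hour 3, and Vcam1 averaged 95.9 ± 26.6 CPM at day 8 and 774 ± 252 CPM at hour 3 (SD, n = 3 each). Sele, the endothelial selectin, fell by 4.93. The members that rose, Pecam1 (3.06) and Icam2 (2.05), are both endothelial and leukocyte genes.

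Of 8 local acute-phase genes tested, 7 fell and 1 rose, by TMM and by library totals alike, with a median log2 fold change of -3.87. Ptx3, a long pentraxin that binds microbes, had 18.3, 7.34 and 17.4 CPM at day 8, against 2540, 3532 and 2704 CPM at hour 3 (log2 fold change -7.67 ± 0.36 SE). The serum amyloid genes Saa1 and Saa3 fell by 6.40 and 5.30. The member that rose was the haptoglobin gene Hp, with 23.8, 23.9 and 19.8 CPM at day 8, against 3.36, 5.16 and 3.94 CPM at hour 3. Complement genes were divided: 7 of 11 tested fell, among them Cfb (-3.00) and Serping1 (-1.44), and the 2 that rose, C1qa (3.91) and C3ar1 (3.23), are known from macrophages (by library totals 6 fell and 2 rose). C3 averaged 4730 ± 1414 CPM at day 8 and 6880 ± 1200 CPM at hour 3, with overlapping libraries and no call.

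Type I interferon-stimulated genes were lower at day 8, 24 of 26 by the test and none higher (median log2 fold change -2.58; by library totals 21 fell and 1, Oas3, rose). Ifit1, whose product binds viral RNA ends, had 44.4, 26.9 and 42.1 CPM at day 8, against 1735, 1360 and 1306 CPM at hour 3 (log2 fold change -5.28 ± 0.22 SE, adjusted p = 1.18e-08). Oasl1 had 7.84, 5.95 and 7.11 CPM at day 8, against 290, 219 and 175 CPM at hour 3. Rsad2, the antiviral enzyme viperin, fell by 4.77, Ifit3 by 4.57 and Ifih1, the RNA sensor MDA5, by 3.01. The fold differed within the list: Irf7 fell by 1.35, Bst2 fell by 0.58 but had a log2 fold change of 0.24 by library totals, and Oas2 and Oas3 had log2 fold changes of -0.36 and 0.68 that did not pass the test. Ifit3 and Ifit3b are near-identical copies, so reads may have been split between them.

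Interferon-gamma-responsive genes were divided, with 11 of 19 tested lower and 5 higher at day 8 (median log2 fold change -0.96; by library totals 8 lower and 7 higher). Cxcl10, which draws T cells through CXCR3, had 59.1, 23.0 and 31.4 CPM at day 8, against 1502, 1250 and 969 CPM at hour 3 (log2 fold change -5.03 ± 0.34 SE). Cd274, the checkpoint ligand PD-L1, averaged 18.7 ± 5.58 CPM at day 8 and 633 ± 254 CPM at hour 3 (log2 fold change -5.08 ± 0.31). In the same list Gbp10 had 20.6, 7.57 and 17.1 CPM at day 8, against 1.72, 1.31 and 1.79 CPM at hour 3 (log2 fold change 3.22 ± 0.38, adjusted p = 2.23e-05). Irf1 rose by 0.93, Gbp4 by 0.94 and Tgtp1 by 1.34, and guanylate-binding protein genes have close paralogs that can share reads. Cxcl9, another CXCR3 ligand, had 88.7, 35.8 and 53.9 CPM at day 8, against 93.9, 89.5 and 73.5 CPM at hour 3 and was not called.

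MHC class I genes were also split, 5 of 15 tested higher and 5 lower, close to the background, and by library totals 11 rose and none fell. Psmb9, an immunoproteasome subunit, rose by 1.55, and H2-K1, a classical class I heavy chain, had 2152, 1743 and 1879 CPM at day 8, against 1295, 952 and 945 CPM at hour 3 (log2 fold change 0.85 ± 0.16 SE). H2-Q7 rose by 1.86, although the H2-Q genes are near-identical and can share reads. Tap1, a peptide transporter, fell by 0.89, and B2m, the light chain, fell by 0.55 but had a log2 fold change of 0.27 by library totals, where neither was called.

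MHC class II genes rose as a block: all 8 members tested were higher at day 8, with a median log2 fold change of 3.25, and all 8 also rose by library totals. Cd74, the invariant chain, had 304, 242 and 251 CPM at day 8, against 24.0, 33.6 and 23.8 CPM at hour 3 (log2 fold change 3.29 ± 0.16 SE, adjusted p = 2.48e-08). H2-Ab1 had 144, 103 and 104 CPM at day 8, against 8.62, 11.7 and 9.23 CPM at hour 3 (log2 fold change 3.57 ± 0.17). Every day 8 library lay several-fold above every hour 3 library. Ciita, the transactivator that switches these genes on, averaged 9.66 ± 2.99 CPM at day 8 and 0.452 ± 0.387 CPM at hour 3 (SD, n = 3 each; log2 fold change 4.38 ± 0.45). The other class II genes had too few counts to be tested, with 40 counts of H2-DMb2 at day 8 and 1 at hour 3, 15 of H2-Oa at day 8 and 0 at hour 3, and 15 of H2-Ob at day 8 and 2 at hour 3.

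Leukocyte markers rose with them. Of 15 macrophage and dendritic cell markers tested, 11 rose and 1 fell (by library totals 13 rose and none fell), and their summed level was 127 to 159 CPM at day 8 and 41.0 to 64.2 CPM at hour 3. Adgre1, which encodes F4/80, had 7.55, 6.95 and 6.47 CPM at day 8, against 0.363, 0.751 and 0.359 CPM at hour 3, and Csf1r, the receptor of CSF1, had 20.9, 24.1 and 18.3 CPM at day 8, against 2.45, 2.63 and 3.77 CPM at hour 3. Cd14, the lipopolysaccharide co-receptor, was the member that fell (log2 fold change -1.07). Of 10 pan-leukocyte genes 9 rose, also by library totals, with sums of 80.3 to 119 CPM at day 8 and 22.4 to 32.7 CPM at hour 3. Ptprc, the gene of CD45, had 38.2, 26.7 and 24.5 CPM at day 8, against 2.81, 8.73 and 8.70 CPM at hour 3 (log2 fold change 2.14 ± 0.33 SE, adjusted p = 0.000162). What part of the class II rise came from such cells was not tested.

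T and NK cell markers rose at a low level, 11 of 14 tested, with a median log2 fold change of 3.65, or 3.485 with the 3 genes that had no hour 3 count set at their lower bound; by library totals 13 rose. Their summed level was 22.6 to 40.4 CPM at day 8 and 4.12 to 6.26 CPM at hour 3. Cd3e, a chain of the T cell receptor complex, had 3.60, 2.11 and 2.39 CPM at day 8 and no count in any hour 3 library, so it was at least 29.4-fold higher at day 8 with a floor of 3 counts over the hour 3 group. Trac rose by 4.14 and Cd4 by 3.79, while the cytotoxic genes Gzmb and Prf1 overlapped between the groups and were not called. None of the 10 B cell markers had enough counts to be tested: they summed to 1.33 to 1.94 CPM at day 8 and 0.538 to 1.82 CPM at hour 3, and Cd79a, a chain of the B cell receptor, had 11 counts over the day 8 libraries and 2 over the hour 3 libraries. Ighm, the IgM heavy chain gene, had 7.38, 8.18 and 4.09 CPM at day 8, against 0.272, 0.281 and 0.538 CPM at hour 3 (log2 fold change 4.13 ± 0.44), and the plasma cell receptor gene Tnfrsf17 had no count at day 8 and 1 at hour 3. Of the 16 immunoglobulin and plasma cell genes 5 were tested, of which 1 rose and 2, Prdm1 and Xbp1, fell (by library totals 2 rose and 1 fell). By library totals Xbp1 had a log2 fold change of 0.18 and no call.

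Neutrophil markers were higher at hour 3, where 4 of the 5 tested lay above day 8 (the median log2 fold change was -6.05, or -5.02 with Cxcr2 at its bound; by library totals 4 were lower at day 8 and 1 higher too). S100a9, a calgranulin of neutrophils and monocytes, had 0, 0 and 0.106 CPM at day 8, against 14.5, 13.7 and 16.9 CPM at hour 3, which is 2 counts against 495 and a ratio of 409 with an exact 95% interval for counts from 113 to 3390. Cxcr2, the receptor of the CXC chemokines above, had no count at day 8 and 1.63, 1.88 and 1.88 CPM at hour 3, at least 32.5-fold lower at day 8. The granule genes Camp and Mmp8 had no count at day 8 and 3 and 37 counts at hour 3, and Ly6g had 2 counts at day 8 and 0 at hour 3. Ltf, the lactoferrin gene, which gland epithelium also uses, rose by 5.27. The markers summed to 5.47 to 10.5 CPM at day 8 and 26.8 to 35.2 CPM at hour 3.

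**Figure D3:**
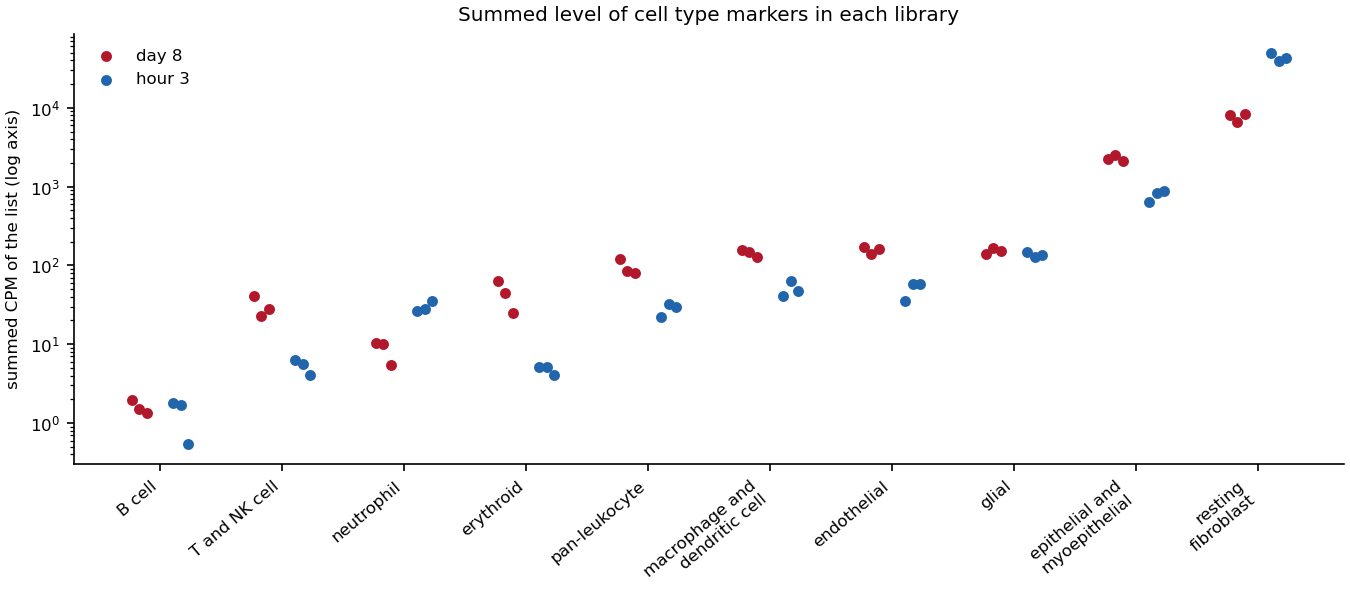
Summed CPM of each marker list in each library on a log axis, with day 8 libraries in red left of hour 3 libraries in blue. T and NK cell, erythroid, pan-leukocyte, macrophage, endothelial and epithelial sums lie higher at day 8, neutrophil and resting fibroblast sums lie lower, and B cell sums overlap at under 2 CPM.

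All 25 mitosis genes were tested and all rose, with a median log2 fold change of 4.36, and all 25 also rose by library totals. Mki67, the proliferation marker Ki-67, had 97.7, 128 and 78.1 CPM at day 8, against 3.27, 6.47 and 3.68 CPM at hour 3 (log2 fold change 4.50 ± 0.26 SE, adjusted p = 7.79e-08). Top2a, which untangles replicated DNA, had 45.3, 55.6 and 34.6 CPM at day 8, against 2.81, 1.69 and 5.29 CPM at hour 3 (log2 fold change 3.78 ± 0.31). Replicate 2 was the highest day 8 library for both, and no library of the groups overlapped. The mitotic kinase gene Cdk1 had 5.60, 9.74 and 5.57 CPM at day 8, against 0.181, 0.0938 and 0.179 CPM at hour 3, and Ccnb2, cyclin B2, averaged 5.78 ± 1.56 CPM at day 8 and 0.270 ± 0.238 CPM at hour 3 (SD, n = 3 each). Aurkb, the chromosomal passenger kinase, had no hour 3 count and was at least 27.4-fold higher at day 8. Foxm1, a transcription factor of these genes, rose by 0.67, the smallest change of the 25.

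Of 24 DNA replication genes tested, 19 rose and 2 fell (median log2 fold change 1.49; by library totals 21 rose and none fell). Pole, the leading-strand polymerase, rose by 4.20, Uhrf1, which maintains DNA methylation, by 4.03, and Mcm2 and Mcm5, subunits of the replicative helicase, by 2.68 and 2.85. Genes of the same machinery that fell were Mcm6 and Pcna. Mcm6 had 45.3, 44.1 and 32.0 CPM at day 8, against 86.0, 89.2 and 72.8 CPM at hour 3, and Pcna, the polymerase clamp, averaged 25.1 ± 1.44 CPM at day 8 and 38.3 ± 6.49 CPM at hour 3 (SD, n = 3 each), but its log2 fold change was -0.61 with TMM and 0.21 by library totals. Cell cycle inhibitors were split, 6 of 13 tested higher and 7 lower (by library totals 7 and 5). Cdkn1a, the p53 target p21, had 24.5, 20.1 and 18.9 CPM at day 8, against 57.3, 47.0 and 54.3 CPM at hour 3 (log2 fold change -1.32 ± 0.13), and Gadd45b fell by 2.74. Cdkn1b, which encodes p27, had 41.2, 44.1 and 44.9 CPM at day 8, against 8.17, 7.69 and 8.97 CPM at hour 3 (log2 fold change 2.39 ± 0.13). The leukocyte and epithelial marker sums rose in the same libraries, and which cells carried the cell cycle RNA was not tested.

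Matrix-remodelling enzymes and their inhibitors all fell at day 8, 21 of 21 tested (median log2 fold change -2.61; by library totals 15 fell and none rose). Timp1, an inhibitor of metalloproteinases, had 8.52, 5.12 and 6.37 CPM at day 8, against 504, 588 and 388 CPM at hour 3 (log2 fold change -6.21 ± 0.23 SE, adjusted p = 5.34e-09). Lox, which cross-links collagen, averaged 55.1 ± 13.2 CPM at day 8 and 3684 ± 491 CPM at hour 3 (SD, n = 3 each). The stromelysin Mmp3 fell by 5.02, the urokinase gene Plau by 4.36 and Adamts1 by 4.23. Mmp2 and Mmp14 had small falls of 0.56 and 0.55, against log2 fold changes of 0.25 and 0.27 by library totals, which were not called.

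Among matrix genes themselves the falls were smaller in most members. Of 18 collagens tested, 13 fell and 1, Col7a1, rose (median log2 fold change -0.99; by library totals 7 fell and 4 rose). Col12a1 fell by 2.98 and the basement membrane chain Col4a1 by 2.12, with 2610, 2603 and 2288 CPM at day 8, against 11308, 10926 and 10431 CPM at hour 3. The fibrillar collagen Col1a1 averaged 4346 ± 387 CPM at day 8 and 5633 ± 614 CPM at hour 3, and Col3a1 averaged 7873 ± 295 CPM at day 8 and 6088 ± 1304 CPM at hour 3, and neither was called. Of 20 matrix glycoproteins and proteoglycans 17 fell and none rose (median log2 fold change -1.485; by library totals 12 fell and 2 rose). Thbs1, which activates latent TGF-beta, had 1005, 594 and 568 CPM at day 8, against 65402, 50646 and 50253 CPM at hour 3 (log2 fold change -6.26 ± 0.34 SE). Vcan, a hyaluronan-binding proteoglycan, fell by 3.52 and Tnc, tenascin-C, by 3.15.

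Genes of resting fibroblasts fell, 19 of 19 tested, with a median log2 fold change of -1.74; by library totals 15 fell and none rose. Gsn, an actin-severing protein, had 4642, 3791 and 4896 CPM at day 8, against 36742, 28215 and 31535 CPM at hour 3 (log2 fold change -2.86 ± 0.22 SE). Smoc2 fell by 2.66 and Mfap5 by 2.50. Pdgfra, a receptor that marks fibroblasts, had 984, 750 and 804 CPM at day 8, against 1818, 1677 and 1826 CPM at hour 3 (log2 fold change -1.07 ± 0.14, adjusted p = 4.21e-05), and by library totals the change was -0.25 and not called. Pdpn, the gene of the sorting antigen, had 51.0, 38.9 and 50.5 CPM at day 8, against 653, 571 and 516 CPM at hour 3 (log2 fold change -3.63 ± 0.15, adjusted p = 9.72e-09). It fell by 2.82 by library totals too. The groups are thus far apart in the RNA of the protein on which both were sorted, and the gate was set on protein. Over the same libraries epithelial and endothelial marker sums rose, and their part in the fibroblast falls was not tested.

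Of the H3K27 demethylases, Kdm6b differed most. Kdm6b (ENSMUSG00000018476, chr11:69398508-69413675 on GRCm38) had 209, 154 and 137 CPM at day 8, against 1988, 2111 and 2018 CPM at hour 3 (log2 fold change -3.61 ± 0.18 SE, adjusted p = 2.59e-08). The hour 3 libraries differed little among themselves, and the day 8 level was 12.2-fold lower. Its X-linked relative Kdm6a averaged 43.2 ± 4.69 CPM at day 8 and 35.9 ± 0.695 CPM at hour 3, a log2 fold change of 0.27 that just missed the call (adjusted p = 0.0521) and that was 1.09 and called by library totals. The methyltransferases rose: Ezh2 had 19.6, 21.1 and 20.1 CPM at day 8, against 9.62, 8.91 and 9.23 CPM at hour 3 (log2 fold change 1.13 ± 0.14), and Ezh1 rose by 1.58. Over the list of demethylases and Polycomb complex genes 6 of 12 tested fell and 2 rose, with Aebp2 (-1.48) and Mtf2 (-1.12) the next largest falls (by library totals 2 fell and 6 rose).

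Lymphoid stromal genes did not rise as a group at day 8: 9 of 15 tested fell and 2 rose (by library totals 7 and 3). Ch25h, which makes an oxysterol that is a precursor of lymphocyte guidance cues, had 4.00, 3.95 and 4.14 CPM at day 8, against 1587, 1051 and 1113 CPM at hour 3 (log2 fold change -8.27 ± 0.22 SE, adjusted p = 3.07e-09). Cxcl13, the B cell chemokine, had 9.89, 4.28 and 5.89 CPM at day 8, against 12.2, 26.5 and 24.8 CPM at hour 3 (log2 fold change -1.66 ± 0.33, adjusted p = 0.000952), and Ccl19 averaged 0.665 ± 0.465 CPM at day 8 and 1.10 ± 0.117 CPM at hour 3 with no call. Levels of both chemokines were low in the day 8 and hour 3 groups, and Cxcl13 was higher at day 1, as given below. Il7 and Tnfsf13b, the survival factors of T and B cells, had log2 fold changes of 0.10 and 0.11 with overlapping libraries. The lymphotoxin receptor gene Ltbr rose by 0.39 and Bst1 by 1.35.

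Immediate-early genes went in both directions, 7 of 20 higher and 10 lower (by library totals 10 higher and 8 lower). The share of rises is near the 37.1% over all genes tested, and 33.3% of all genes fell. Atf3, a stress-induced factor, had 554, 585 and 507 CPM at day 8, against 137, 97.4 and 106 CPM at hour 3 (log2 fold change 2.27 ± 0.14 SE). Fos, Fosb, Jun and Jund rose by 1.05 to 1.17, for example Fos with 1986, 1786 and 1794 CPM at day 8, against 1156, 810 and 669 CPM at hour 3. Other AP-1 and growth-response genes fell: Fosl1 had 13.7, 12.2 and 6.16 CPM at day 8, against 248, 231 and 245 CPM at hour 3 (log2 fold change -4.50 ± 0.24), Maff fell by 4.09, Myc by 3.93, Nr4a3 by 3.09 and Ier3 by 3.07. So 2 members of one family, Fos and Fosl1, moved in opposite directions in the same libraries. MAPK phosphatases were divided too, with Dusp6 and Dusp4 among 4 that rose and Dusp1, Dusp5 and Dusp16 among 5 that fell, none of which fell by library totals. Of 7 EGF receptor ligands tested 3 fell and 2 rose, close to the background (by library totals 2 and 3). Hbegf fell by 2.91. Egf, a duct product, rose by 1.76 with 52.7, 213 and 218 CPM at day 8, against 23.5, 68.6 and 50.2 CPM at hour 3.

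Heat-shock genes were split by member. The inducible Hsp70 genes Hspa1a and Hspa1b, near-identical copies that can share reads, rose by 2.60 and 2.56, and Hspa1b had 97.7, 123 and 110 CPM at day 8, against 16.5, 16.1 and 23.5 CPM at hour 3. Bag3, a cofactor of Hsp70, fell by 2.48, Hspb1 by 2.08 and Hsp90aa1 by 2.06, so that 4 of 13 rose and 8 fell (by library totals 7 and 4). Of 15 unfolded protein response genes 11 fell and 2 rose, led by Chac1 (-3.78), Atf6 (-2.03) and Hspa5 (-1.68), the gene of the chaperone BiP; by library totals 5 fell and 6 rose.

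In metabolism, hypoxia-linked genes fell while most of the glycolytic steps changed less. Hif1a, the hypoxia factor, had 121, 107 and 119 CPM at day 8, against 1424, 1463 and 1279 CPM at hour 3 (log2 fold change -3.59 ± 0.13 SE, adjusted p = 5.34e-09). Hk2 fell by 4.50, Vegfa by 3.22, Pfkfb3 by 3.15 and the glucose transporter gene Slc2a1 by 2.83, whereas Eno1, Tpi1 and Pfkl rose by 1.15, 1.31 and 1.63. In all 12 of 18 fell and 3 rose, and by library totals 6 fell and 7 rose. Nuclear genes of the respiratory chain had 6 of 18 higher and none lower, with a median log2 fold change of 0.31 (by library totals 18 higher). That share of rises is near the 37.1% over all genes tested, and no member rose by 2-fold or more. Sdhb (0.86) and Ndufa4 (0.69) were among those that rose. Cholesterol synthesis genes had 8 of 18 lower and 4 higher (by library totals 5 lower and 9 higher): Cyp51 fell by 2.35 and Mvk rose by 1.33. Among 14 circadian clock genes tested, Dbp rose by 4.14, Per3 by 2.07 and Tef by 1.75, and 7 fell, led by Bhlhe41 (-4.51) and Arntl (-1.64), the gene of BMAL1 (by library totals 8 rose and 2 fell). The hour of the day at sampling is not in the labels.

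Contractile and mural genes rose in 9 of 14 tested and fell in 3 (by library totals 11 and 3). Myh11, the smooth muscle myosin, had 318, 405 and 319 CPM at day 8, against 39.2, 43.0 and 64.3 CPM at hour 3 (log2 fold change 2.83 ± 0.19 SE, adjusted p = 2.29e-07). Rgs5 had 51.2, 54.5 and 57.0 CPM at day 8, against 2.36, 1.22 and 4.57 CPM at hour 3, and Acta2, the smooth muscle actin, rose by 2.70. Cspg4, the NG2 proteoglycan that is also used as a pericyte marker, moved against these, with 58.7, 66.8 and 61.6 CPM at day 8, against 1341, 1162 and 1142 CPM at hour 3 (log2 fold change -4.28 ± 0.13). Abcc9 and Ndufa4l2, 2 more mural genes, fell by 1.46 and 1.55.

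Epithelial and myoepithelial genes rose in all 13 tested (median log2 fold change 2.17), also by library totals, and the list summed to 2087 to 2508 CPM at day 8 and 646 to 888 CPM at hour 3. Krt7, a duct keratin, had 112, 119 and 123 CPM at day 8, against 13.3, 12.8 and 12.5 CPM at hour 3 (log2 fold change 3.20 ± 0.10 SE, adjusted p = 4.37e-09). The basal and myoepithelial keratin Krt5 rose by 3.79 and their transcription factor Trp63 by 3.66, while Epcam rose by 1.45 and Cdh1, E-cadherin, by 0.38. Of 18 acinar and duct secretory genes tested 12 rose and 1 fell (by library totals 14 and 1). Bhlha15, the acinar factor MIST1, had 47.5, 93.5 and 90.6 CPM at day 8, against 5.35, 13.0 and 11.6 CPM at hour 3, and the water channel gene Aqp5 averaged 186 ± 60.2 CPM at day 8 and 58.9 ± 23.1 CPM at hour 3. Mucl2 was not called, with a log2 fold change of -0.08. Libraries of one group differed widely in several gland products: the kallikrein Klk1 had 277, 1416 and 1774 CPM at day 8, against 204, 463 and 261 CPM at hour 3, and Dcpp2 had 63.0, 0.0556 and 7.00 CPM at day 8, against 0.635, 25.1 and 35.3 CPM at hour 3. Kallikrein and Dcpp genes are close paralogs that can share reads.

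Endothelial markers rose in 8 of 12 tested and fell in none (by library totals 10 rose), and the list summed to 140 to 172 CPM at day 8 and 35.4 to 58.8 CPM at hour 3. Pecam1 had 23.5, 21.8 and 25.5 CPM at day 8, against 2.00, 2.44 and 4.03 CPM at hour 3 (log2 fold change 3.06 ± 0.23 SE), and the adhesion protein gene Vwf rose by 3.38. The lymphatic genes Prox1, Flt4 and Reln had log2 fold changes of -1.18, 0.13 and -0.58 that did not pass the test, and Lyve1 had 9 counts at day 8 and 41 at hour 3. Globin genes rose with the other erythroid markers, 5 of 5 tested, also by library totals, and the list summed to 25.2 to 63.2 CPM at day 8 and 4.12 to 5.16 CPM at hour 3. Hbb-bs had 30.9, 21.7 and 12.3 CPM at day 8, against 1.63, 2.72 and 1.70 CPM at hour 3. The glial list was close to the background, 3 of 9 higher and 2 lower (by library totals 4 and 1), with Sox10 up by 1.48 and Cdh19 down (log2 fold change -1.22). Of 7 adipocyte markers 2 were tested, and Pparg rose by 1.26 at under 3 CPM (by library totals both rose).

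**Figure D4:**
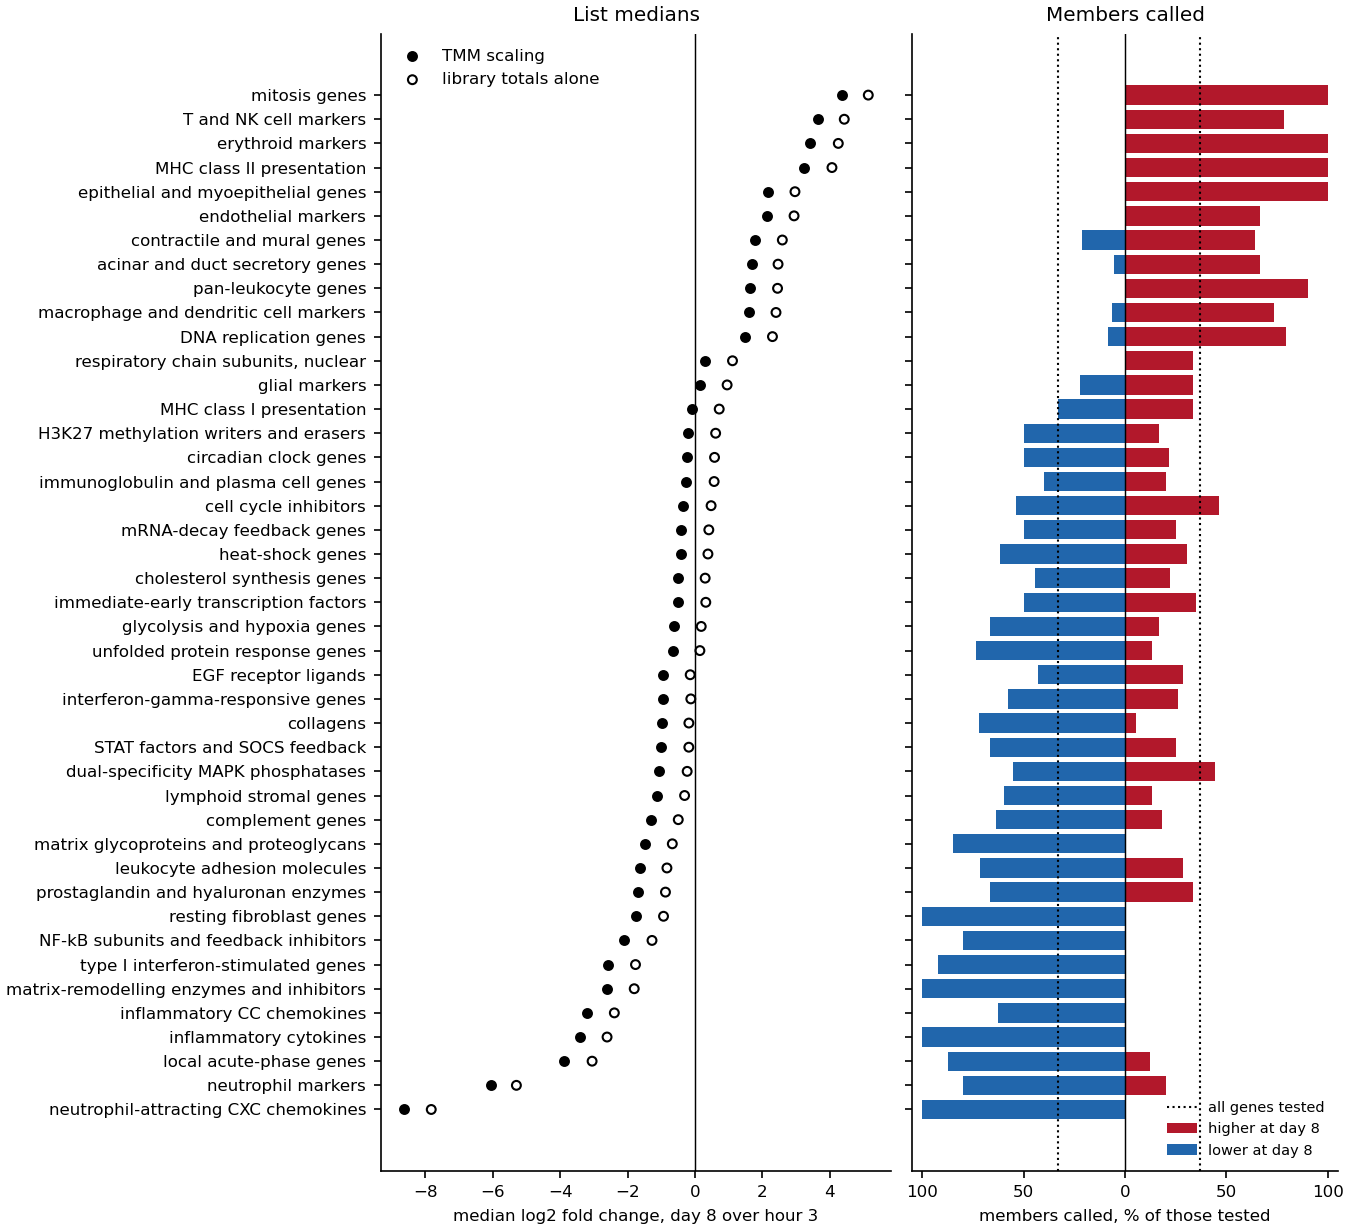
For gene lists with at least 4 tested members, the left panel gives the median log2 fold change, day 8 over hour 3, with TMM scaling (filled) and library totals (open), and the right panel the percent of tested members called higher (red, right) or lower (blue, left) at day 8. Dotted lines mark 37.1% and 33.3%, the shares over all genes tested. Lists at the ends had most members called in 1 direction. Lists in the middle differ: MHC class I genes lie near both lines, and unfolded protein response genes, with 11 of 15 lower, do not.

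Set among the other times of the series, some of these genes had an hour 3 level far from all other groups. The means that follow are scaled by TMM over all 18 libraries, so they differ from those above, and each run of 6 values goes from hour 0 through hour 3, day 1, day 2 and day 8 to day 23. The Il6 means were 22.0, 8355, 131, 314, 33.3 and 45.2 CPM. For Kdm6b they were 228, 2906, 284, 359, 243 and 266 CPM. In both genes the day 8 mean lies close to the hour 0 mean and the hour 3 mean far above it. Pdpn had means of 60.4, 827, 338, 190, 68.3 and 63.0 CPM, so its day 1 and day 2 levels lay in between. Some resting fibroblast genes also stood above hour 0 at hour 3, and below it at day 8. At hour 0, hour 3 and day 8, Gsn had means of 18590, 45900 and 6483 CPM. Smoc2 had 1088, 2098 and 338.9 CPM, and Mfap5 had 45.2, 166 and 29.95 CPM.

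Other genes had their highest mean at day 8. In the same order of times Mki67 had means of 14.9, 6.36, 6.98, 46.9, 148 and 16.95 CPM. Cd74, the class II invariant chain, had means of 24.7, 38.6, 36.9, 10.03, 388 and 186 CPM. The hour 3 mean of Krt7, 18.3 CPM, lay below the 59.6 CPM of the uninfected sorted cells, and its day 8 mean of 172 CPM lay above. Pdgfra had means of 1922, 2530, 182, 422, 1234 and 1613 CPM, lowest at day 1. Cxcl13 was highest at day 1, with means of 13.4, 30.1, 494, 91.2, 9.76 and 17.3 CPM. For some genes that rose, the hour 3 mean lay far below the hour 0 mean, and the day 8 mean was not above hour 0. At hour 0, hour 3 and day 8, Myh11 had means of 681, 69.65 and 507 CPM and Nynrin 99.4, 2.69 and 72.05 CPM. Hspa1a had 94.1, 15.1 and 93.8 CPM, and Trp63 had 47.75, 3.42 and 44.55 CPM. The methyltransferase gene Ezh1 had 64.9, 16.7 and 51.2 CPM. A rise from hour 3 in such genes is not a rise above the uninfected level. These are levels with no test, and the hour 0, day 1 and day 2 libraries carry the higher background on receptor genes given above.

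**Figure D5:**
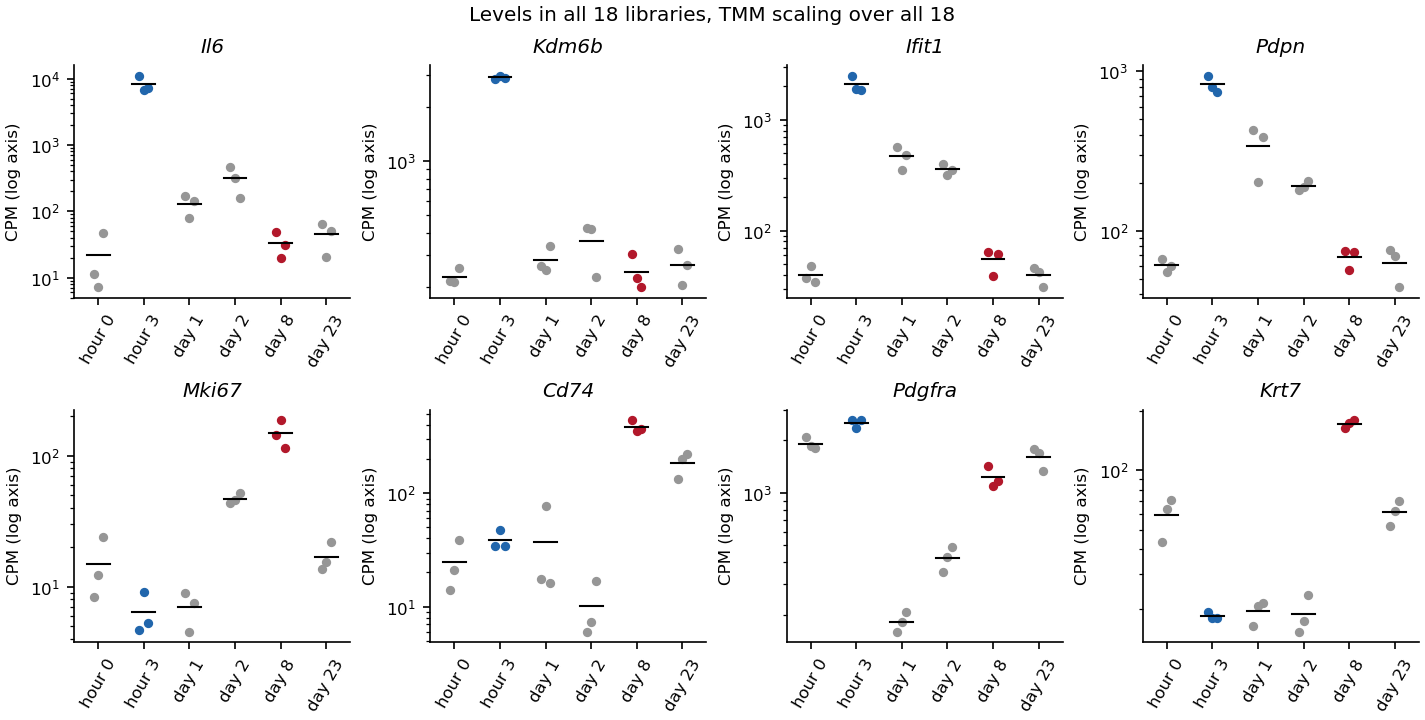
CPM on a log axis, scaled by TMM over all 18 libraries, for 8 genes at the 6 times, 3 libraries each, with hour 3 in blue, day 8 in red, the other times in grey and a black line at each mean. Il6, Kdm6b, Ifit1 and Pdpn stand highest at hour 3, and Mki67, Cd74 and Krt7 stand highest at day 8.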

How the data were processed

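Each library has 1 deposited table of whole-number read counts, 1 row per Ensembl gene, with no normalization. Per the submitters' processing notes the authors used FastQC, STAR with mm10, Subread and DESeq2; versions, annotation release, strand setting and the handling of reads with several matches are not given in the sources used here, so overlapping or antisense genes cannot be told apart. Gene names, positions and exon lengths came from GENCODE M21 on GRCm38, which held 55141 of 55401 identifiers; the others took 0.0241% of counts.

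The 3 day 8 and 3 hour 3 libraries were fitted alone with edgeR 4.0.16 in R 4.3.3 by the quasi-likelihood test, with TMM scaling, filterByExpr (minimum count 10, minimum total 15) and Benjamini-Hochberg adjustment over all genes tested. The script was tested on simulated counts in which few genes changed, as many up as down. That run could not check the scaling for libraries in which most genes were called. Replicates of a group differed beyond sampling noise (chi-square per gene of at least 11.57), so no library repeats the counts of another. Each has a subject label of its own and was taken as 1 sample. Intervals and floors (3 counts over a group, 95%) cover counting error only. Where 2 identifiers share a symbol, the one with more counts was used.

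Named genes are the 14 largest rises and 14 largest falls past the test with at least 20 CPM in the higher group and no overlap, without predicted genes or receptor segments; up to 4 called members of each of 45 lists with at least 5 CPM; 21 genes always named; and list members given where their list is described; some of these genes are not reported here. The comparison and the lists were chosen with earlier results of these data known. Promoters came from RefSeq (GRCm38.p6). Alternatives were other scaling (DESeq2 size factors, library totals), filters, DESeq2 1.42.0, limma-voom 3.58.1, other sets of libraries and leaving out each library.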

Additional observations from a re-analysis of the deposited data

How the results depend on the processing

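The counts of genes called higher and lower moved by over 1.5 times with library totals and with no other alternative. By totals 11049 genes were called, 8849 higher and 2200 lower at day 8, with 6790 and 1247 at 2-fold or more, and 427 genes were called by both scalings with opposite signs; the hour 3 libraries have TMM factors under 1 and the day 8 libraries over 1. Called genes numbered 10202 with DESeq2 size factors, 10857 with no filter (40% of 27165 tested), 8314 with a 5 CPM filter (78.7% of 10564), 10196 with DESeq2 (37.5% of 27165), 10282 with limma-voom, 8441 with 18 libraries (30.7% of 27525), 8513 with 9 (55.7% of 15273) and 10249 without mitochondrial genes. Without 1 replicate, 9525 to 10083 genes were called, 4960 to 5268 higher and 4565 to 4837 lower, with 3666 to 3926 and 2839 to 3049 at 2-fold or more. By totals Xbp1 changed by 0.18 (not called), and list medians turned positive for mRNA-decay feedback genes (0.41), immediate-early transcription factors (0.32), cell cycle inhibitors (0.48), immunoglobulin and plasma cell genes (0.57), H3K27 methylation writers and erasers (0.62), glycolysis and hypoxia genes (0.19), cholesterol synthesis genes (0.30), heat-shock genes (0.39), unfolded protein response genes (0.15) and circadian clock genes (0.58). With the 5 CPM filter, which tests fewer members, the median of the EGF receptor ligands was 1.26 and that of the glial markers -0.027; the glial median was -0.04 without replicate 2 and -0.21 without replicate 6. No paired analysis was possible because the replicate numbers 1 to 18 are each used once and no number is shared between the groups. With 3 libraries a group, no exact permutation p over samples can go below 0.1, and genes under about 1 CPM were mostly not tested.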
